A study of Mus musculus with 4 samples.

Results

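The 9 genes described here encode the proximal signalling machinery of the pre-B cell receptor: the kinases Syk, Btk and Prkcb, the adaptors Blnk, Bank1, Pik3ap1 and Grb2, and the effector enzymes Plcg2 and Vav1. They were taken by gene symbol, 9 of the 23420 rows in each count file, and all 9 passed the filter on low counts. RNA came from mouse large pre-B cells of a single line, genotype Irf4/8-/-, so both groups lack the transcription factors Irf4 and Irf8. The cells were grown on OP9 stromal cells, a feeder layer, and given a retrovirus that carried green fluorescent protein with a hairpin against Luciferase (shLuc, the control) or against Myb (shMyb). After 72 hours in medium with interleukin 7 at 10 ng/ml, fluorescent cells were sorted, and 2 libraries were made per group. The libraries of a group came from duplicate sets of wells, so every p-value rests on the spread between transductions of that line, with neither other lines nor animals represented.

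The pre-B cell receptor pairs an immunoglobulin heavy chain with the surrogate light chain and signals through Cd79a and Cd79b. When Src family kinases phosphorylate the tails of these chains, Syk docks on them and phosphorylates the scaffold Blnk, which brings Btk to its substrate Plcg2. Plcg2 makes the messengers that release calcium and activate protein kinase C beta, the product of Prkcb, while Vav1 acts on Rac GTPases and Pik3ap1 (BCAP) recruits phosphoinositide 3-kinase. In pre-B cells this cascade is known for driving a burst of division and then the exit from it.

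Depth was 36573743 to 44682954 counts in each library, and libraries of a group correlated at 0.996 or above over the log2 CPM of the tested genes, which are not independent replicates. Myb, the hairpin's target, was not lower: the shLuc libraries had 616 and 600 CPM, and 617 and 639 CPM were found in the libraries labelled shMyb (log2 fold change 0.046, SE 0.037, edgeR adjusted p = 0.283). CPM divide each count by the library's TMM-scaled total, so levels are shares of a library. Directions below thus compare libraries by label, since the files show no loss of Myb RNA. Gm26577, an antisense gene, overlaps 559 of the 8933 exon bases of Myb, and only reads in that stretch cannot be assigned without the strand setting. The 7 pre-B cell markers reported here summed to 3880 to 3970 CPM in shLuc against 3690 to 3790 CPM in shMyb. Of the 7, 3 were called higher, 3 lower (85.7% called) and none was at 0. Of all tested genes 62.2% were called, 30.6% higher and 31.7% lower. Il7r (-0.52 on the log2 scale), Igll1 (-0.37) and Vpreb1 (-0.29) were lower, and Cd79a (0.22), Pax5 (0.21) and Cd79b (0.16) higher.

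The 9 genes split into those that rose by close to 1.5-fold and those that hardly moved. Prkcb, Bank1, Pik3ap1 and Syk rose, Blnk fell slightly, and Btk, Plcg2, Vav1 and Grb2 did not pass the test (edgeR's quasi-likelihood test, Benjamini-Hochberg adjusted p below 0.05 over 12610 genes). That is 5 of 9 called, or 55.6%, against 62.2% of all tested genes and 67.1% of the 8645 tested genes that averaged 10 CPM or more, so the count itself is near the background. By direction, 4 of 9 were higher, against 30.6% of all tested genes and 27.4% of those at this level, and 1 of 9 was lower, against 31.7% and 39.7%. The median log2 fold change of the 9 was 0.073. That of all tested genes was 0.0048, and that of tested genes at 10 CPM or more was -0.0433. Called higher with a log2 rise of at least 0.5 were 4 of the 9 and 5.71% of genes at 10 CPM or more. That limit was chosen after the values were seen and lies under those of the 4 genes, so the contrast is not a test. The groups did not overlap in 7 of the 9, against 82.1% of all tested genes and 84.7% of those at 10 CPM or more. In bulk RNA, a changed share of cells and changed RNA per cell cannot be told apart.

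Promoter windows of the 4 genes that rose are shown because these genes moved together, and that of Vav1 because it held the letters of a MYB site. Of the pair of windows listed for Syk, only the upstream one, window 1, is printed. The windows run from 250 bases before to 50 after the RefSeq start on GRCm38.p6, 5′ to 3′ on the gene's strand, with motif matches in capitals. They lie at chr13:52583187-52583486 (plus strand) for Syk, chr7:122288875-122289174 (plus) for Prkcb, chr3:136326017-136326316 (minus) for Bank1, chr19:41385053-41385352 (minus) for Pik3ap1 and chr17:57278850-57279149 (plus) for Vav1.
Syk: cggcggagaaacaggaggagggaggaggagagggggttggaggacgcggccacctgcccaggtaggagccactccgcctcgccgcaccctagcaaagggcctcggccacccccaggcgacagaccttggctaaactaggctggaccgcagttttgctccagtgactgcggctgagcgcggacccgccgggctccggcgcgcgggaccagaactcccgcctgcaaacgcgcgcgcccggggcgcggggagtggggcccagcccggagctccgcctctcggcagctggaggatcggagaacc
Prkcb: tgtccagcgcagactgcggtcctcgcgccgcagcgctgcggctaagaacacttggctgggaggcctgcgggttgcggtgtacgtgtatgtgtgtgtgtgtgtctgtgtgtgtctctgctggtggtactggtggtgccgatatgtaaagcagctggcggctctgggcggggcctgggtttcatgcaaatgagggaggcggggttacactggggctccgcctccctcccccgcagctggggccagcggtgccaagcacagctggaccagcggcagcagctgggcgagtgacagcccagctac
Bank1: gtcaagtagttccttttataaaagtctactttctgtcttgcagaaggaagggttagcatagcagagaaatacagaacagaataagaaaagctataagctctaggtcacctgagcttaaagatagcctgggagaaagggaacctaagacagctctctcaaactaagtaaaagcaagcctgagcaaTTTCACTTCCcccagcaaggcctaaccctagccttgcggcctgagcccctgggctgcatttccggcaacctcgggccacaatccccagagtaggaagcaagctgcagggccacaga
Pik3ap1: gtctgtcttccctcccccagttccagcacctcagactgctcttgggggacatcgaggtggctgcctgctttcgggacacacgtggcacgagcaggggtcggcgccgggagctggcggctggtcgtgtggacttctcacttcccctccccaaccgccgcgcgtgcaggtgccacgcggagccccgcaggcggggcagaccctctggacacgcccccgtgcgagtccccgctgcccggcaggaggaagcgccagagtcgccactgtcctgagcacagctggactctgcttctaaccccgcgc
Vav1: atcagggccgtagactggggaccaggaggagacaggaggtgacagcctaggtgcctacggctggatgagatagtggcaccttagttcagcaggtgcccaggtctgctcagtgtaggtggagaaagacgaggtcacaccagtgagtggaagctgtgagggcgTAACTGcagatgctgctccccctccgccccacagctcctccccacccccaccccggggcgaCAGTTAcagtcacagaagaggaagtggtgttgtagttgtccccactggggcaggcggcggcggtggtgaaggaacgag

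All 9 genes matched the RefSeq table, with 11 windows, as Syk and Grb2 have 2 each. Both strands were searched for MYB letters, which are AAC after a C or T and before TG or GG. An ETS-IRF composite was read as GGAA, any 2 bases and then GAAA. An interferon response type was read as GAAA on either side of any 2 bases, and the ETS-IRF and interferon letters can overlap each other. EBF1 was read as TCCC, any 2 bases and then GGGA, and Ikaros as TGGGAA. MYB letters stood in 1 of the 11 windows, that of Vav1, at positions -89 and -28 from the start, against 28.3% of all 32851 windows. The ETS-IRF composite stood in 1 window, that of Bank1, on the minus strand at -66, against 2.72% of all windows. The Ikaros letters stood in the windows of Btk and Plcg2 (25.6% of all windows), and EBF1 letters (0.904%) and interferon response letters (3.44%) in none. A match is a run of letters and not a measured binding site.

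Among the kinases, Syk and Prkcb rose and Btk did not pass. Syk, which docks on the phosphorylated receptor tails, was at 602 and 604 CPM in shLuc against 888 and 908 CPM in shMyb. Both shMyb libraries lay above both shLuc libraries, and the lowest shMyb value was 1.47 times the highest shLuc value. On the log2 scale it rose by 0.57 (95% interval 0.50 to 0.65, SE 0.037, edgeR adjusted p = 1.2e-12). Syk lies on chromosome 13 at 52583173 to 52648792, plus strand.

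Prkcb, whose product acts upstream of NF-kB, had the highest estimate of the 9 genes, although Bank1 (0.63 against 0.55) was above it after removal of the GC and length trend, and Pik3ap1 (0.62 against 0.61) without shLuc replicate 2. It was at 450 and 433 CPM in shLuc against 687 and 693 CPM in shMyb (chromosome 7, 122288751 to 122634402, plus strand). The groups stood well apart, with the nearest pair of libraries 1.53-fold apart. It rose by 0.64 on the log2 scale (interval 0.57 to 0.72, SE 0.037, edgeR adjusted p = 1.4e-13).

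Btk, the Tec family kinase that phosphorylates Plcg2, was at 194 and 193 CPM in shLuc against 200 and 204 CPM in shMyb (chromosome X, 134542336 to 134583570, minus strand). The groups did not overlap, yet the shift was small. Its log2 fold change of 0.065 (interval -0.0086 to 0.14, SE 0.036) missed the threshold at an edgeR adjusted p = 0.116, and a fold above 1.1 lies outside the interval. Btk was called higher in 4 of 16 alternatives, at most at 0.18 after removal of the trend with GC content and length (adjusted p = 7.4e-05, the lowest of the 16, while the highest was 0.417).

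**Figure D1:**
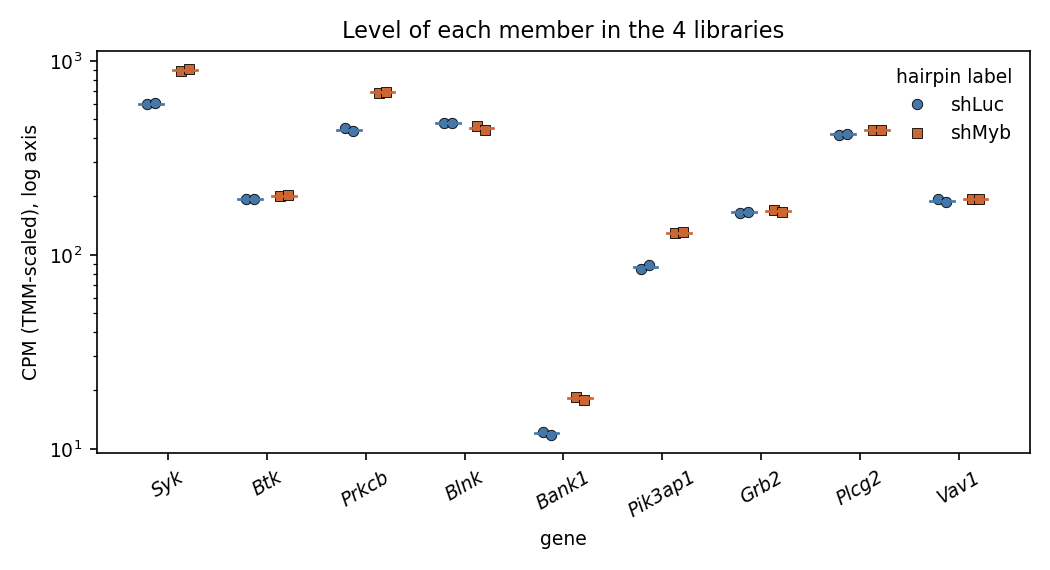
Level of the 9 genes in each library, in CPM on a log axis, with circles for shLuc, squares for shMyb and bars for the mean of 2 libraries. Syk, Prkcb, Bank1 and Pik3ap1 are higher in both shMyb libraries, while Grb2 and Vav1 overlap between the groups.

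Among the adaptors, the related scaffolds Bank1 and Pik3ap1 rose together. Bank1, a B cell scaffold with ankyrin repeats, was the least abundant of the 9, at 12.2 and 11.8 CPM in shLuc (487 and 516 counts) and 18.5 and 17.9 CPM in shMyb (720 and 674 counts). Its groups did not overlap, and its interval was the widest of the 9 (log2 fold change 0.60, SE 0.07, interval 0.46 to 0.74, edgeR adjusted p = 6.3e-08). It lies on chromosome 3 at 136053363 to 136326066, minus strand. Pik3ap1, the adaptor BCAP, was at 84.1 and 89.1 CPM in shLuc against 129 and 131 CPM in shMyb (chromosome 19, 41272377 to 41385102, minus strand). All shMyb values lay above all shLuc values, at a log2 fold change of 0.58 (SE 0.039, interval 0.50 to 0.66, edgeR adjusted p = 2.8e-12). The ratio of these scaffolds hardly moved: Pik3ap1 made up 90.3% and 91.0% of the pair's level per length in shLuc and 90.4% and 90.7% in shMyb.

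Blnk, the scaffold that brings Btk to Plcg2, went the other way by a small amount. It was at 479 and 480 CPM in shLuc against 461 and 441 CPM in shMyb (chromosome 19, 40928927 to 40994535, minus strand). The shMyb libraries lay below the shLuc libraries but differed more from each other than the shLuc libraries did. Blnk fell by 0.089 on the log2 scale (interval -0.17 to -0.014, SE 0.037, edgeR adjusted p = 0.0379). The call ended in 8 of 16 alternatives, among them those without the shLuc replicate 2 library (adjusted p = 0.0887) or the shMyb replicate 2 library (0.279), and with the expression trend removed the value was -0.0033. Over all 16 the adjusted p ran from 3.9e-04 to 0.935.

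Grb2, the general adaptor that links receptors to the Ras exchange factor Sos, was at 165 and 167 CPM in shLuc against 170 and 166 CPM in shMyb (chromosome 11, 115644045 to 115708597, minus strand). The groups overlapped, with a log2 fold change of 0.011 (interval -0.063 to 0.086, edgeR adjusted p = 0.801). None of the 16 alternatives called it.

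The effector enzymes did not pass. Plcg2, the phospholipase that makes inositol trisphosphate and diacylglycerol, was at 415 and 422 CPM in shLuc against 442 and 438 CPM in shMyb (chromosome 8, 117498291 to 117635142, plus strand). Its groups did not overlap, with a log2 fold change of 0.073 (interval -0.001 to 0.15, edgeR adjusted p = 0.0802). Library totals alone (0.14) and 3 other alternatives called it higher. Vav1, an exchange factor for Rac, was at 193 and 188 CPM in shLuc against 193 and 193 CPM in shMyb (chromosome 17, 57279100 to 57328031, plus strand). These groups overlapped, at a log2 fold change of 0.018 (interval -0.056 to 0.092, edgeR adjusted p = 0.678). Library totals alone called it higher, at 0.081. With library totals 7 of the 9 genes were called higher and 0 lower, and 60.1% of all called genes were higher, against 49.1% with TMM.

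**Figure D2:**
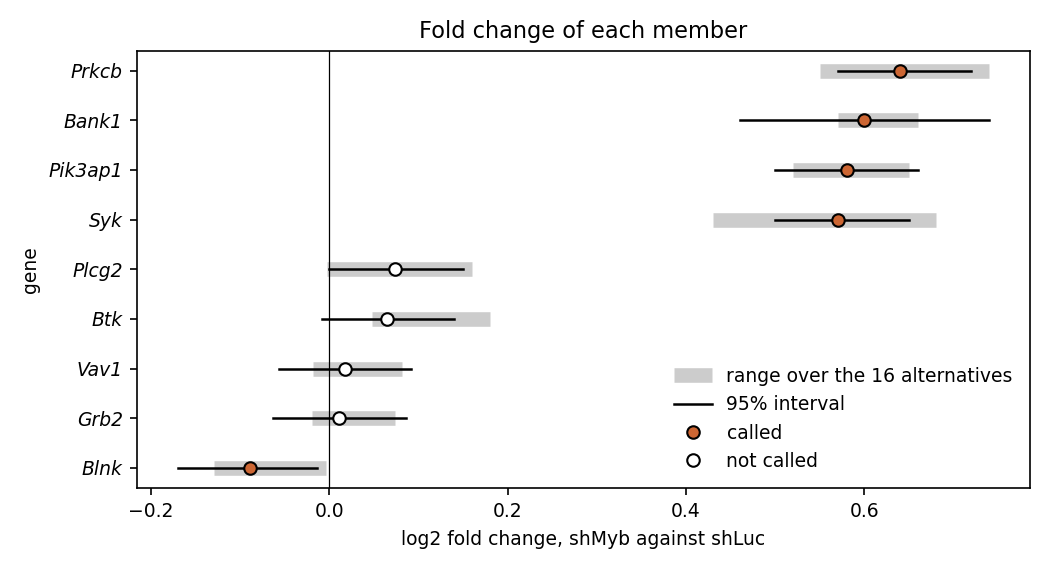
Log2 fold change of shMyb against shLuc for each of the 9 genes, with points for the edgeR estimate, lines for its 95% interval and grey bars for the range over 16 alternatives. The intervals of the 4 genes that rose start between 0.46 (Bank1) and 0.57 (Prkcb), while those of Btk, Plcg2, Vav1 and Grb2 include 0.

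The 4 rises were alike in size, from 0.57 to 0.64, with intervals that overlap one another, although the genes span a wide range of levels. In CPM the rise was 295 for Syk, 248 for Prkcb, 43.2 for Pik3ap1 and 6.20 for Bank1. Each of the 4 was called in all 16 alternatives. The lowest values there were 0.43 for Syk, 0.52 for Pik3ap1, 0.55 for Prkcb and 0.57 for Bank1. No exon of the 9 genes overlaps an exon of another gene in GENCODE M21. All 9 are annotated there as protein coding.

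Levels can be compared between genes only per length. As RPKM (CPM per kilobase of union exon length), the order in shLuc was Plcg2 (97.3 ± 1.17, SD, n = 2), Blnk (80.1 ± 0.155), Syk (64.4 ± 0.183), Btk (61.4 ± 0.292), Prkcb (57.7 ± 1.58), Grb2 (57.0 ± 0.499), Vav1 (51.7 ± 0.874), Pik3ap1 (15.5 ± 0.645) and Bank1 (1.61 ± 0.0326). Of these neighbours, Prkcb and Grb2 overlapped between libraries and the others did not. In shMyb, Syk (95.9 ± 1.52) and Prkcb (90.2 ± 0.562) stood above Blnk (75.3 ± 2.28) and below Plcg2 (102 ± 0.634), and no neighbours overlapped. The order rests on the length used. With the longest annotated transcript, only 2 of the 9 kept their rank in shLuc, Pik3ap1 and Bank1 at the low end. Prkcb came first there at 133 ± 3.64. In shMyb that length put Prkcb (207 ± 1.29) and Syk (167 ± 2.65) above Plcg2 (102 ± 0.634). That Bank1 was the lowest and Pik3ap1 the next lowest held with both lengths.

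Several of the 9 genes have relatives of the same protein family, and their values are set beside them here. Of the 12 relatives reported here 9 were tested, of which 5 fell and 4 did not pass (55.6% called). Of all tested genes 62.2% were called. Lower calls made up 31.7% and higher calls 30.6% of all tested genes. The count in either direction is thus near the background, while all 5 calls among the relatives were lower. Zap70, the other kinase of the Syk family and best known from T cells, was at 25.6 and 26.1 CPM in shLuc against 10.3 and 9.48 CPM in shMyb. It fell by 1.38 on the log2 scale (SE 0.069, edgeR adjusted p = 7.5e-15), while Syk rose. Of the summed Syk and Zap70 level per length, Syk held 88.2% and 88.1% in shLuc and 96.5% and 96.8% in shMyb.

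Prkca, which encodes protein kinase C alpha, a conventional isoform like the Prkcb product, was at 162 and 160 CPM in shLuc against 109 and 108 CPM in shMyb. It fell by 0.57 (SE 0.037, edgeR adjusted p = 1.2e-12), a change about as large as the rise of Prkcb. Of the summed Prkcb and Prkca level per length, Prkcb held 76.5% and 76.1% in shLuc and 88.1% and 88.3% in shMyb.

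Lcp2, the relative of Blnk that serves the T cell receptor as SLP-76, fell from 35.3 and 37.6 CPM to 21.7 and 20.1 CPM (-0.80, SE 0.057, edgeR adjusted p = 9.8e-12). Blnk held 91.0% and 90.5% of the level per length of Blnk, Lcp2 and Clnk in shLuc and 94.0% and 94.2% in shMyb. Vav3 fell as well, from 27.6 and 27.0 CPM to 18.8 and 16.4 CPM (-0.63, SE 0.065), whereas Vav2 was at 57.4 and 55.5 CPM and then 57.9 and 56.1 CPM. Plcg1 fell by 0.10 (adjusted p = 0.022), a call that ended in 6 of 16 alternatives, among them the fits without shLuc replicate 1 and without shMyb replicate 1.

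The reported relatives of Btk and Grb2 gave no call. Tec had a log2 fold change of 0.05, Grap of 0.043 and Grap2 of 0.045. Bmx had 0 counts in all 4 libraries, which allows up to 0.0689 to 0.0799 CPM per library (3 counts), and Txk and Clnk were below the filter. The groups did not overlap in the share for 6 of the 8 families compared, but the exact two-sided permutation test of 2 against 2 cannot go below p = 0.333, which adjusts to 0.444. The shift in share was 11.9 percentage points for Prkcb, 8.49 for Syk, 3.35 for Blnk, 2.14 for Vav1, 2.09 for Plcg2 and 0.156 for Btk. It was -0.492 for Grb2 and -0.0896 for Pik3ap1. All shares were computed with union exon length alone, and their size can depend on the length used.

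**Figure D3:**
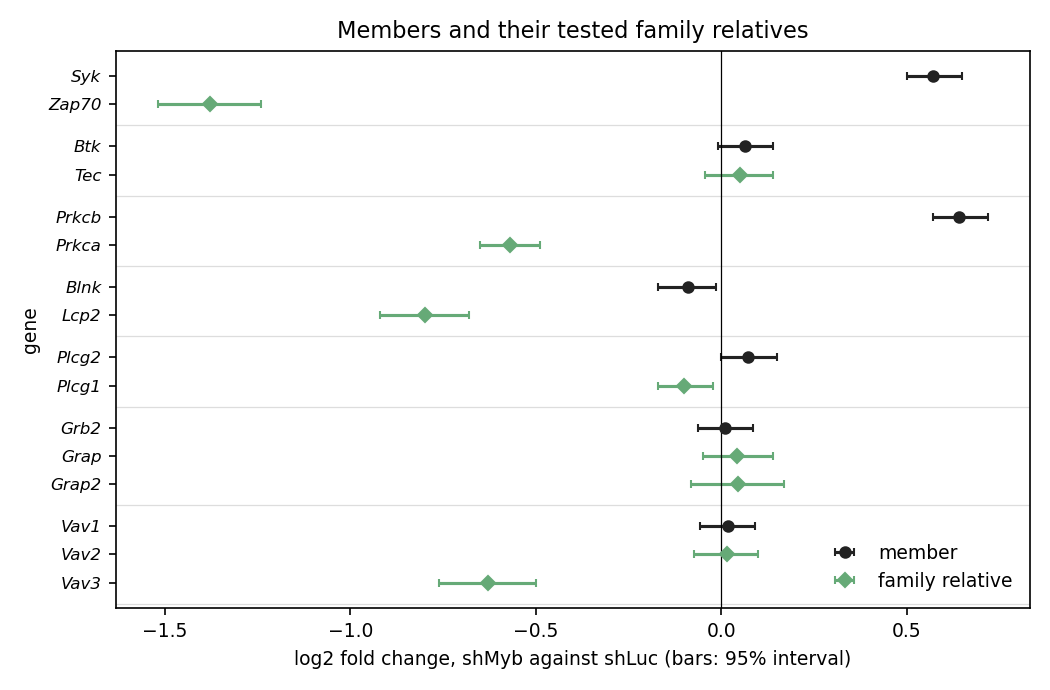
Log2 fold change with its 95% interval for each gene (circles) and its tested family relatives (diamonds), grouped by family. Syk lies above 0 and Zap70 at -1.38, and Prkcb lies above 0 and Prkca at -0.57.

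With these relatives included, 113 other genes of the pathway are reported here in groups by role, and 110 were tested. Of these 50 rose, 24 fell and 36 did not pass (67.3% called, median 0.083), and with library totals alone 62 rose and 18 fell. Of all tested genes 62.2% were called, 30.6% higher and 31.7% lower. At 10 CPM or more these shares were 67.1%, 27.4% and 39.7%. The share called in either direction was thus near the background. By direction, a larger share than in the background was higher and a smaller share lower, a difference that was not tested. The counts by group below should be read beside these background shares. Genes named only to spell out a small count were chosen after their values were seen.

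Upstream of Syk, the receptor chains and coreceptors were divided, with 3 higher and 4 lower of 8 (median -0.13). The signalling chains Cd79a (0.22) and Cd79b (0.16) and the phosphatase Ptprc (0.35, adjusted p = 7.6e-09) rose, and the Cd79b call ended without shLuc replicate 1. Igll1 (-0.37) and Vpreb1 (-0.29), which encode the surrogate light chain, fell with the coreceptor genes Cd81 (-0.22) and Cr2 (-0.53). Vpreb1 has a near-identical copy, Vpreb2, so its level is uncertain, and the Cr2 call ended without shLuc replicate 1 and without shMyb replicate 1. Of the Src family kinases and their control genes 4 rose and 2 fell of 8 (median 0.26). Lyn, a Src family kinase, rose from 105 and 108 CPM to 183 and 180 CPM (0.77, SE 0.037). Blk rose by 0.62 and Lck by 0.23. Fgr rose by 1.1 at 0.857 ± 0.239 CPM in shLuc, and Fyn (-0.55) and the Csk-binding adaptor Pag1 (-0.21) fell. Fgr is also expressed in myeloid cells, whose summed markers, 3.51 to 4.23 CPM in shLuc, were 7.57 to 8.60 CPM in shMyb, and their part in this rise was not tested.

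Other adaptors went both ways, 5 higher and 4 lower of 13 (median 0.0095, below 0 in some alternatives, as at -0.0099 after removal of the GC and length trend). Lat, the membrane scaffold of T cell receptor signalling, fell by 1.17 from 97.7 ± 2.02 to 43.6 ± 1.06 CPM (SD, n = 2 each). Lat2, its counterpart in B and myeloid cells, rose by 1.23 from 2.27 ± 0.0302 CPM, Themis2, an adaptor that binds Grb2, by 0.61 and Hcls1, an actin regulator, by 0.34. Cd2ap (0.39) and Gab2 (0.44) rose too, and Crk (-0.14), Gab1 (-0.24) and Nck1 (-0.12) fell, although these falls were not called with library totals. The Gab1 and Nck1 calls also ended without shLuc replicate 2, and the Nck1 call, which ended in 8 of 16 alternatives, without shMyb replicate 2 too. In the phosphoinositide 3-kinase branch, which Pik3ap1 feeds, 5 rose and 0 fell of 10 (median 0.13). By edgeR 0 of them were lower at an unadjusted p below 0.05, and DESeq2 and limma-voom called 0 lower. The catalytic subunit gene Pik3cd rose by 0.29, and the regulatory subunit genes Pik3r2 by 0.48 and Pik3r5 by 0.22, with Pik3ca at 0.18 and Pik3r1 at 0.089. The Pik3r5 call ended after removal of the GC and length trend (0.065), a fit in which 4 genes of the branch were higher and 2 lower, and the Pik3r1 call ended with any 1 of the 4 libraries left out and in 8 of 16 alternatives in all.

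Downstream of Plcg2, 7 genes of the calcium branch rose and 3 fell of 14 (median 0.19). They included the inositol trisphosphate receptor genes Itpr2 (0.69) and Itpr3 (0.39) and the channel gene Orai2 (0.64), while Orai1 (-0.18) and the calcineurin genes Ppp3cb (-0.17) and Ppp3r1 (-0.32) fell. The Orai1 call ended without shLuc replicate 2. In the diacylglycerol and Ras branch 10 rose and 3 fell of 22 (median 0.066). The Ras exchange factor genes Rasgrp1 (0.61) and Rasgrp3 (1.09, from a mean of 6.13 CPM in shLuc) rose. The exchange factor genes Rasgrp2 (-0.068, at a mean of 395 CPM in shLuc), Sos1 (-0.0059) and Sos2 (0.0044) were not called. Dgkd (0.45), whose product removes diacylglycerol, rose. Hras (-0.33), Prkce (-0.16) and Prkcd (-0.12) fell, the last of them not called with library totals. The NF-kB branch, which protein kinase C beta feeds, had 5 higher and 0 lower of 7 by edgeR (median 0.15), 0 lower at an unadjusted p below 0.05, and 0 lower by limma-voom and by DESeq2, which called 3 higher. Malt1, a protease and scaffold, rose by 0.48 (48.3 and 48.8 CPM against 68.9 and 66.6 CPM), and the kinase genes Ikbkb by 0.23 and Chuk by 0.18. Ikbkg (0.15) and Map3k7 (0.087) were called higher too. The Ikbkb call ended after removal of the GC and length trend (0.065). With DESeq2 the Ikbkg call ended, and the Map3k7 call held in 7 of 16 alternatives.

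Among negative regulators 11 rose and 3 fell of 19 (median 0.32). The inhibitory receptor genes Cd22 (1.81, from 25.2 ± 1.51 to 87.9 ± 3.18 CPM) and Cd72 (0.79) rose. The phosphatase gene Ptpn22 fell by 1.28, with Ubash3b (-1.26) and Dok2 (-0.55), and the Dok2 call ended without shLuc replicate 2.

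**Figure D4:**
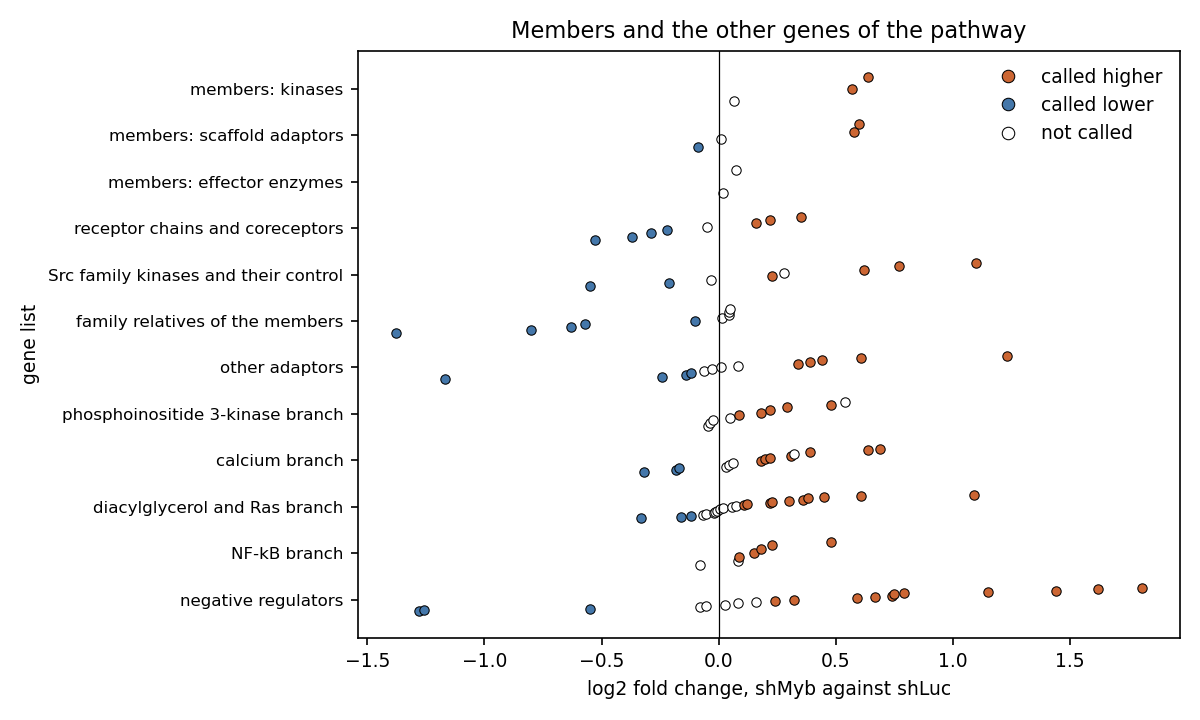
Log2 fold change of every tested gene reported here, by role in the pathway, with orange points for genes called higher, blue for lower and white for not called. The 9 genes fill the upper 3 rows, and the negative regulators reach from -1.28 to 1.81.

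Prkcb had the highest estimate of the 9 with TMM scaling, all 4 libraries and no trend removed. The pattern nearest to that of Prkcb belonged to Gsn (gelsolin), Orai2 and Pde4dip. Among 8644 other genes that averaged 10 CPM or more, their centred log2 CPM lay at Euclidean distances of 0.00973, 0.024 and 0.0267 from Prkcb over 4 libraries. With 2 libraries per group this says little more than that their fold changes were near 0.64.

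Markers of other cells were measured beside these results. For their counts, the background over all tested genes is 30.6% called higher and 31.7% called lower. Several of the 9 genes, Syk and Plcg2 among them, are also expressed in myeloid cells. Of 10 myeloid markers 9 were in the files, 4 of the 6 tested rose, and their summed level went from 3.51 to 4.23 CPM in shLuc to 7.57 to 8.60 CPM in shMyb, with Elane at 0 in all libraries. The part of such cells in the results for the 9 genes was not tested. The 11 stromal markers summed to 53.6 to 69.3 CPM in shLuc against 50.4 to 57.4 CPM in shMyb, which overlap, with 2 of 10 tested higher and 2 lower. The 7 T cell markers summed to 2.78 to 3.03 CPM and 2.96 to 3.41 CPM, with Cd4 and Cd8a at 0 in all libraries. The 5 mature B cell markers summed to 16.8 CPM in each shLuc library and to 34.2 and 34.3 CPM in shMyb, with 3 of 4 tested higher and 1 lower. Most of that sum was Ccr7, which rose from 9.93 to 26.4 CPM on average, while Cr2 fell from 3.05 to 2.11 CPM. Their part in the results was not tested.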

How the data were processed

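The authors deposited raw counts of reads per gene, a file of 23420 rows for each library. Per the submitters' processing notes, the build was mm10 and the tools included STAR, HTSeq, FastQC and DESeq2. Tool versions, gene annotation and strand setting were not given in the sources used here. In each file 27 symbols had become calendar dates, and those rows stayed in the fit.

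From these counts, filterByExpr (minimum count 10) kept 12610 of the 16832 genes counted at all. After TMM scaling the test was that of edgeR 4.0.16, run in R 4.3.3 (glmQLFit with robust=TRUE, glmQLFTest, group as the only term), with Benjamini-Hochberg adjustment over all tested genes and calls at an adjusted p below 0.05. Intervals are 95%. Depth of 36573743 to 44682954 counts puts the limit of a count of 0 (3 counts) at 0.0689 to 0.0799 CPM, for counting error only. The fit was tested on simulated data.

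Gene models came from GENCODE M21 (GRCm38, also called mm10) and promoter windows from RefSeq on GRCm38.p6. The 9 genes, the pathway and marker lists, the motifs and the tests were chosen with earlier results of these data known. Pirb, Hras and Adgre1 stood under older symbols, and Ly6g was not analysed here. Some other genes of the lists are not reported here, and the counts leave them out. By rule, named genes were the 9, their relatives, the 3 called genes with the smallest p in each other list, and the 3 nearest to Prkcb. Further pathway and marker genes were named to spell out counts or sums, after their values were seen. Alternatives were RLE scaling, library totals, no filter, a 1 CPM filter (2 libraries), DESeq2 1.42.0, voom in limma 3.58.1, robust=FALSE, a replicate block, each library left out, an adjusted p below 0.01, removal of a smooth trend with expression level (loess span 0.5) or with GC content and length (splines with 5 degrees of freedom, centred), and longest transcripts in place of union exon length.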

Additional observations from a re-analysis of the deposited data

How the results depend on the processing

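The 4 rises kept their direction and call in all 16 alternatives, 15 planned and the crossed block added after the data were seen. The count of the 9 genes called higher was 7 with library totals alone and 4 to 6 in the others. The count called lower, Blnk alone, was 0 with library totals, the 1 CPM filter, either trend removed, the replicate block or an adjusted p below 0.01, and 0 to 1 with a library left out. The cause was not tested. Myb was called higher with library totals (0.11, adjusted p = 0.0109) and with the expression trend removed (0.15, adjusted p = 9.1e-04, the lowest over the alternatives, with 0.795 the highest). With longest transcripts 2 of 9 ranks per length were kept in shLuc. The labels do not say that replicate numbers pair the samples, and deviations of same-numbered libraries correlated at -0.195. A replicate block moved all called genes from 7849 to 7341, and a block with crossed numbers to 8593. Without a call, Grb2 (-0.02), Vav1 (-0.018) and Plcg2 (-0.0032) lay below 0 in at least 1 alternative. With 2 libraries per group, the intervals of the 4 genes not called leave out folds above 1.11, and smaller changes could go uncalled. In the simulated counts, 9 of 50 planted 1.1-fold changes, on randomly picked genes of any level, were called. That share does not carry over to the 9 genes. In the simulation 12410 of 12610 genes were unchanged, which makes the adjusted threshold stricter than in the data, where 7849 genes were called.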
